A study of Mus musculus with 6 samples.

Results

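Succinate dehydrogenase (complex II), the cytochrome bc complex (complex III), its mobile electron carrier cytochrome c, a part of cytochrome c oxidase (complex IV) and ATP synthase (complex V) are described here through 34 of their subunit genes in the mouse heart at postnatal day 7. The genes were chosen by name, as the nuclear subunits of complexes II, III and V, cytochrome c, and the oxidase subunits without a heart-specific isoform. All 34 symbols matched 1 row each of the 52550 mouse genes in the count files, and all 34 passed the filter on low counts, which kept 14860 genes. They divide into 4 genes of complex II, 9 of complex III, 1 of cytochrome c, 5 of complex IV and 15 of complex V.

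The inner mitochondrial membrane carries these complexes in series. Complex II feeds electrons from succinate into the ubiquinone pool, complex III passes them to cytochrome c, complex IV hands them to oxygen, and complex V uses the proton gradient built on the way to make ATP. Heart muscle is packed with mitochondria, and in rodents it turns from glycolysis towards oxidative metabolism after birth, which makes these subunits some of its most abundant nuclear-encoded mRNAs.

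The study compared whole hearts of GR-cKO mice, which lack the glucocorticoid receptor (gene Nr3c1) in their cardiomyocytes by design, with hearts of control mice. There were 3 GR-cKO and 3 control libraries, which the labels call biological replicates, all from animals of postnatal day 7. The labels used here name neither the Cre line, nor the deleted exon, nor the alleles of the control animals. RNA was sequenced with a 3′ mRNA kit, so a read stands for the end of a transcript and a level in CPM (reads of a gene relative to all reads of tested genes, with TMM scaling) is not divided by gene length.

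Libraries held 18135540 to 20988286 reads in GR-cKO hearts and 19209410 to 22999192 reads in control hearts. Nr3c1 had 57.6, 49.2 and 56.2 CPM in GR-cKO replicates 1, 2 and 3, against 114, 131 and 99.7 CPM in control replicates 1, 2 and 3. On the log2 scale it fell by 1.08 in GR-cKO hearts (SE 0.125), with a Benjamini-Hochberg adjusted p of 0.00101 in edgeR. Heart muscle markers were high in every library, with a summed level of Myh6, Actc1, Tnnt2, Tnni3, Ryr2 and Pln of 34288 to 42914 CPM in GR-cKO and 34643 to 36448 CPM in control hearts. Xist and Y-linked reads showed that replicate 1 of each group was female and the other libraries male. GR-cKO replicate 3 stood apart through Gm42418, a transcript that overlaps ribosomal RNA sequence, which took 10.9% of its mouse gene reads, against 5.47 to 7.69% in the other libraries. Control replicate 2 stood apart through fat: Ucp1, the uncoupling protein of brown fat, was at 89.3 CPM there, against 0 to 18.8 CPM in GR-cKO hearts and 0.420 to 6.78 CPM in the other control hearts. The 4 markers of white and brown fat (Adipoq, Plin1, Cidec and Lep) summed to 34.3 CPM in that library and to at most 9.53 CPM in any other, with Lep at 0 reads in all. The 5 brown fat markers (Ucp1, Cidea, Elovl3, Dio2 and Otop1) summed to 261 CPM in control replicate 2 and to 125 to 176 CPM elsewhere. Most of the sum elsewhere was Cidea, at 163 CPM in control replicate 2 and 167 CPM in GR-cKO replicate 3. Elovl3 and Dio2 were not highest in control replicate 2 either, so that of the 5 only Ucp1 and Otop1 were. The sum of the 5 erythroid markers was also highest in control replicate 2, at 9217 CPM, against 6550 to 7768 CPM elsewhere. The globins Hba-a1, Hba-a2, Hbb-bs and Hbb-bt were each highest in that library. Alas2 was not, at 58.7 CPM there and 77.8 CPM in control replicate 1. Brown fat is itself rich in respiratory chain mRNA. The part of these other cells in the results was not tested.

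No subunit gene passed the test of GR-cKO against control hearts, edgeR's quasi-likelihood test with Benjamini-Hochberg adjustment over all tested genes at a threshold of 0.05. The 0 of 34 stand beside 0.00673% of all genes, which is Nr3c1 alone. The smallest adjusted p of a subunit gene was 0.998 in edgeR, and DESeq2 and limma voom also called 0 of them. At an unadjusted p under 0.05, 6 of the 34 were lower in GR-cKO hearts (17.6%, against 2.13% of all tested genes) and 0 were higher (against 2.07%). These 6 were Sdhc, Uqcrfs1, Cycs, Cox7b, Cox7c and Atp5j, at least 1 from each complex. The number of the 34 at an unadjusted p under 0.05, in either direction, depended on the setting. It was 6 with DESeq2, limma voom, DESeq2 size factors, library totals or no low-count filter, and 6 without GR-cKO replicate 2. With a term for replicate it was 5, and without control replicate 3 also 5. It was 3 without GR-cKO replicate 3, 3 without control replicate 1 and 3 with a term for sex. Without GR-cKO replicate 1 it was 2, without control replicate 2 also 2, and with spike-in scaling 0.

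The log2 fold changes of the 34 genes were small and spread to both sides of 0. They ran from -0.39 (Atp5j) to 0.11 (Uqcrh), with 22 below 0 and 12 above. That is 64.7% below 0, where 48.7% of all tested genes were, and the median was -0.07, against 0.01 over all tested genes. The 95% intervals of 31 of the 34 lay within a 1.5-fold change to either side. All 3 GR-cKO hearts lay below all 3 control hearts for 7 genes (20.6%, against 5.27% of all tested genes), namely Sdhc, Uqcrfs1, Cycs, Cox5b, Atp5a1, Atp5h and Atp5j. They lay above all 3 control hearts for 1 gene, Uqcr10 (2.94%, against 4.70%). The subunit genes share libraries and vary together, so these counts are no more than descriptions. In whole-heart RNA, fewer cells of a type and less RNA per cell cannot be told apart.

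**Figure D1:**
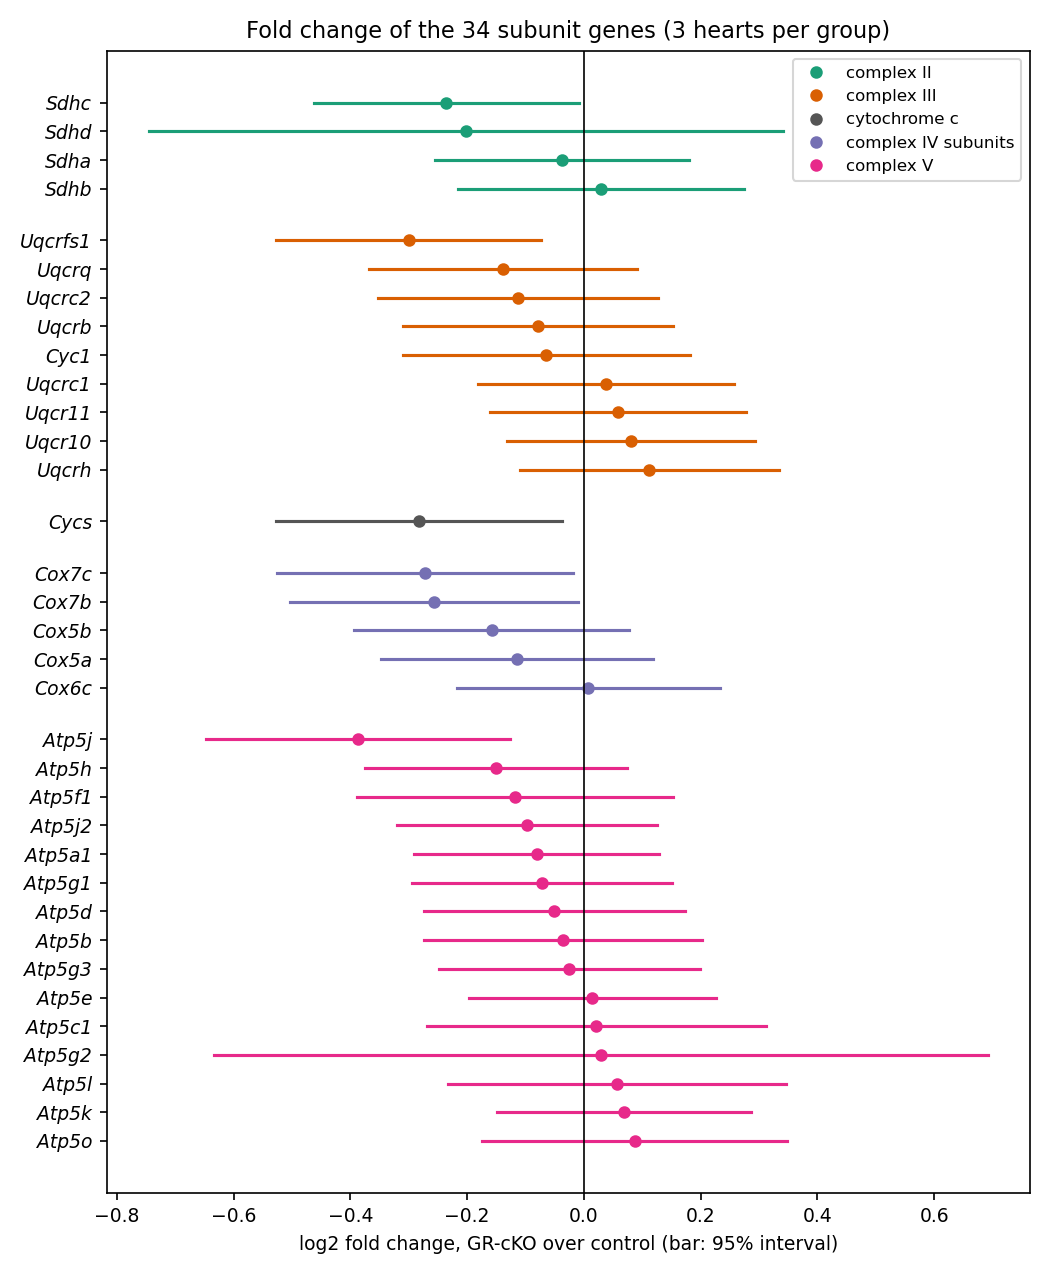
Log2 fold change of each of the 34 subunit genes, GR-cKO over control (x axis), by complex (colour), with bars for the 95% interval of the edgeR fit on 3 hearts per group. Points run from -0.39 (Atp5j) to 0.11 (Uqcrh), and 6 intervals lie wholly below 0, before adjustment over all genes.

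Complex II is the only complex of the chain whose subunits are all encoded in the nucleus. Sdhc (chromosome 1, 171127165 to 171150603, minus strand, GRCm38), a membrane anchor that takes part in ubiquinone binding, was at 674, 693 and 683 CPM in GR-cKO replicates 1, 2 and 3, against 790, 888 and 737 CPM in control replicates 1, 2 and 3. The GR-cKO values lay close together and below every control value. The log2 fold change of -0.24 (SE 0.108, 95% interval -0.46 to -0.01) had an unadjusted p of 0.0422 and an edgeR adjusted p of 0.998. It was -0.16 without control replicate 2. Sdha, the flavoprotein that oxidises succinate (chromosome 13, 74322254 to 74350280, minus strand), was at 620, 587 and 638 CPM in GR-cKO and 614, 640 and 639 CPM in control hearts. Its log2 fold change of -0.04 had an interval of -0.25 to 0.18. Sdhb, the iron-sulfur subunit (on the plus strand of chromosome 4, 140961203 to 140979193), was at 737, 638 and 817 CPM in GR-cKO and 660, 777 and 712 CPM in control hearts. Both groups of Sdha and of Sdhb overlapped. Sdhd, the other membrane anchor (chromosome 9, 50596357 to 50603812, minus strand), had the widest spread of the complex, with 69.1, 140 and 103 CPM in GR-cKO and 142, 98.6 and 118 CPM in control hearts. Its fold change is the least certain of these 4, at -0.20 with an interval of -0.75 to 0.34.

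Complex III gave fold changes of both signs, 5 below and 4 above 0. Uqcrfs1 (chromosome 13, 30540308 to 30545362, minus strand), the Rieske iron-sulfur protein that takes electrons from ubiquinol, was at 470, 479 and 432 CPM in GR-cKO replicates 1, 2 and 3, against 573, 601 and 526 CPM in control replicates 1, 2 and 3. Every GR-cKO heart lay below every control heart. Its log2 fold change of -0.30 (SE 0.108, 95% interval -0.53 to -0.07) had an unadjusted p of 0.0125 and an edgeR adjusted p of 0.998, and it ran from -0.35 to -0.25 with each library left out. Uqcrq, a small subunit next to cytochrome b (chromosome 11, 53427922 to 53430831, minus strand), was at 1589, 1512 and 1520 CPM in GR-cKO and 1560, 1926 and 1601 CPM in control hearts. The control mean was set apart by replicate 2, and the log2 fold change of -0.14 became -0.04 without that library. Uqcrh, the hinge protein between the cytochromes (chromosome 4, 116066965 to 116075071, minus strand), was the most abundant mRNA among the 9 nuclear genes of the complex. It was at 2921, 2663 and 3255 CPM in GR-cKO and 2722, 2650 and 2806 CPM in control hearts, a log2 fold change of 0.11 (95% interval -0.11 to 0.33) with overlapping groups. It was 0.03 without GR-cKO replicate 3 and 0.18 without GR-cKO replicate 2. Of the other 6, the core subunit genes Uqcrc1 and Uqcrc2 were at 0.04 and -0.11 on the log2 scale, Cyc1, whose product passes electrons to cytochrome c, at -0.06, and Uqcrb at -0.08. The small subunit genes Uqcr10 and Uqcr11 were at 0.08 and 0.06. For Uqcr10 the GR-cKO values of 1416, 1403 and 1534 CPM all lay above the control values of 1369, 1374 and 1371 CPM, though not far from them (unadjusted p = 0.433). Complex III has 1 subunit from the mitochondrial genome, cytochrome b. Its gene mt-Cytb was at 13054, 13068 and 14986 CPM in GR-cKO and 15070, 17079 and 14706 CPM in control hearts, or -0.19 on the log2 scale (SE 0.105, edgeR adjusted p = 0.998).

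Cycs (chromosome 6, 50562563 to 50566538, minus strand) encodes cytochrome c, the soluble carrier between complexes III and IV. It was at 108, 123 and 97.2 CPM in GR-cKO replicates 1, 2 and 3, against 134, 136 and 128 CPM in control replicates 1, 2 and 3. The groups did not overlap, and GR-cKO replicate 2 came closest to the controls. The log2 fold change of -0.28 (SE 0.117, 95% interval -0.53 to -0.04) had an unadjusted p of 0.0259 and an edgeR adjusted p of 0.998. Without GR-cKO replicate 3, the lowest heart, it was -0.21.

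**Figure D2:**
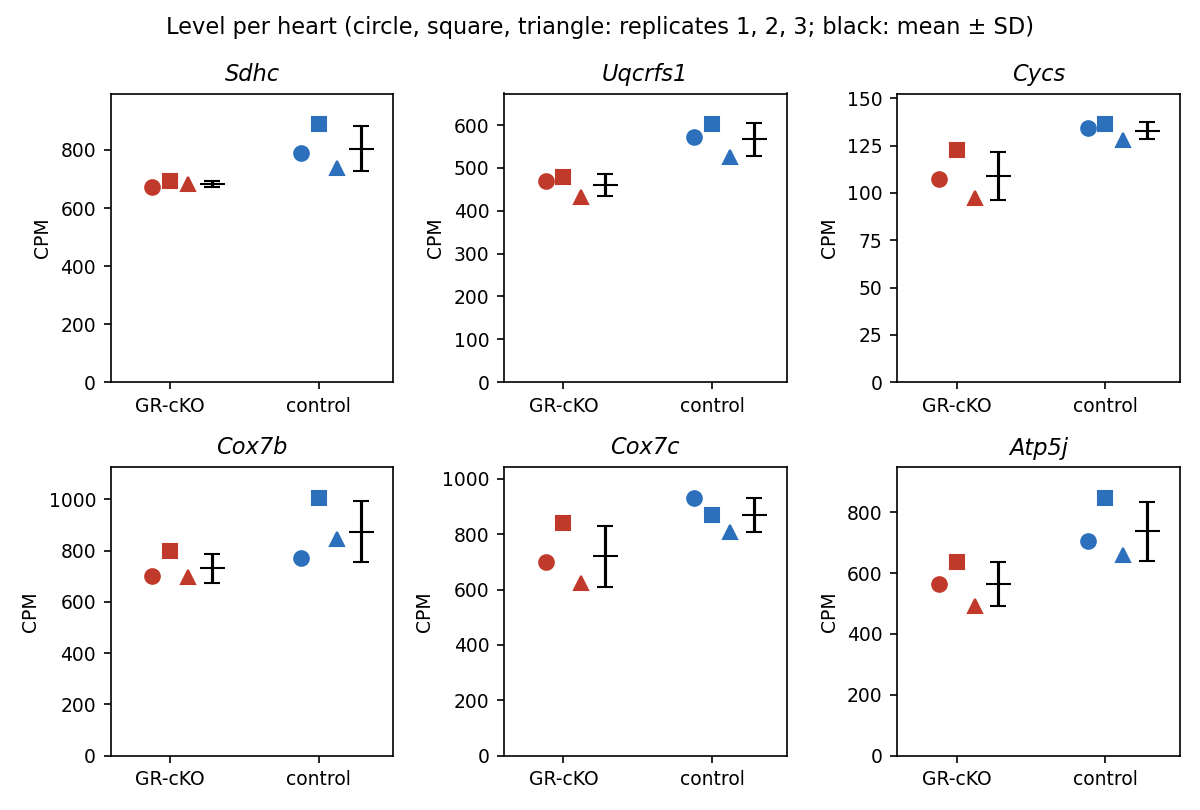
Level in CPM (y axis, from 0) of the 6 genes with an unadjusted p under 0.05, in the 3 GR-cKO hearts (red) and the 3 control hearts (blue); circle, square and triangle are replicates 1, 2 and 3, and black marks give mean ± SD. The groups do not overlap for Sdhc, Uqcrfs1, Cycs and Atp5j, and do overlap for Cox7b and Cox7c.

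The 5 oxidase subunits surround a catalytic core that the mitochondrial genome encodes. Cox7c (chromosome 13, 86044816 to 86046904, minus strand) was at 698, 840 and 622 CPM in GR-cKO replicates 1, 2 and 3, against 931, 870 and 807 CPM in control replicates 1, 2 and 3. GR-cKO replicate 2 lay within the control range and the other GR-cKO hearts below it, and the fold change was -0.27 on the log2 scale (SE 0.121, unadjusted p = 0.0369, edgeR adjusted p = 0.998). Without GR-cKO replicate 3 it was -0.18. Cox7b, on the plus strand of chromosome X (106015700 to 106022450), was at 700, 797 and 697 CPM in GR-cKO and 773, 1005 and 844 CPM in control hearts. Its log2 fold change of -0.26 (SE 0.118, unadjusted p = 0.0428, edgeR adjusted p = 0.998) became -0.14 without control replicate 2, its highest heart. Cox5b, the zinc-binding subunit (on the plus strand of chromosome 1, 36691449 to 36693681), was at 723, 728 and 587 CPM in GR-cKO and 759, 771 and 744 CPM in control hearts. The groups did not overlap, but GR-cKO replicates 1 and 2 lay just under the controls, and the log2 fold change of -0.16 became -0.06 without GR-cKO replicate 3. Cox6c, the most abundant of the 5 (chromosome 15, 35925886 to 35938246, minus strand), was at 2567, 2686 and 3145 CPM in GR-cKO and 2820, 2887 and 2645 CPM in control hearts, a log2 fold change of 0.01 with an interval of -0.22 to 0.23. Cox5a, the remaining subunit, was at -0.11 on the log2 scale.

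ATP synthase has a catalytic head that faces the matrix, a rotating shaft with a ring of c subunits in the membrane, and a peripheral stalk that holds the head still. Genes of the head and shaft had log2 fold changes between -0.08 and 0.02. Atp5b, which encodes the catalytic β subunit, was at -0.04 on the log2 scale, its partner Atp5a1 (α) at -0.08, and the shaft genes Atp5c1 (γ), Atp5d (δ) and Atp5e (ε) at 0.02, -0.05 and 0.01. Atp5a1 was at 2366, 2438 and 2422 CPM in GR-cKO and 2692, 2470 and 2479 CPM in control hearts, groups that did not overlap but came close to each other. Atp5e lay within a narrow range, at 920, 912 and 933 CPM in GR-cKO and 916, 906 and 915 CPM in control hearts.

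The peripheral stalk held the lowest fold change of all 34 genes. Atp5j (chromosome 16, 84827866 to 84835625, minus strand), which encodes coupling factor 6, was at 563, 635 and 493 CPM in GR-cKO replicates 1, 2 and 3, against 704, 847 and 660 CPM in control replicates 1, 2 and 3. Every GR-cKO heart lay below every control heart, with GR-cKO replicate 3 lowest and control replicate 2 highest. The fold change of -0.39 on the log2 scale (SE 0.124, 95% interval -0.65 to -0.13) had an unadjusted p of 0.00593 and an edgeR adjusted p of 0.998, and 53 genes of all tested had a smaller p. It ran from -0.48 to -0.27 with each library left out. Atp5h, the d subunit (chromosome 11, 115415689 to 115419962, minus strand), was at 582, 621 and 535 CPM in GR-cKO and 638, 668 and 623 CPM in control hearts, a log2 fold change of -0.15 (SE 0.107) without overlap, which became -0.10 without GR-cKO replicate 3. Atp5f1, the b subunit (chromosome 3, 105942698 to 105960099, minus strand), was at 794, 822 and 972 CPM in GR-cKO and 813, 1125 and 870 CPM in control hearts. Its log2 fold change of -0.12 turned to 0.04 without control replicate 2. Atp5o, which encodes the oligomycin-sensitivity protein at the top of the stalk, was at 0.09 on the log2 scale, with 2354, 2219 and 3096 CPM in GR-cKO and 2262, 2627 and 2331 CPM in control hearts. The 4 stalk genes thus did not share a sign.

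The c ring is encoded by 3 genes, Atp5g1, Atp5g2 and Atp5g3, whose mature products are the same protein with different targeting peptides. Atp5g3 (chromosome 2, 73908447 to 73911326, minus strand) was the most abundant of the 34 genes, at 4927, 4945 and 5692 CPM in GR-cKO and 5388, 5629 and 4817 CPM in control hearts. Atp5g1 (chromosome 11, 96068852 to 96075670, minus strand) was at 541, 536 and 497 CPM in GR-cKO and 527, 586 and 541 CPM in control hearts. Atp5g2 (chromosome 15, 102662864 to 102672352, minus strand) was at 3.85, 3.68 and 3.44 CPM in GR-cKO and 3.93, 2.88 and 3.93 CPM in control hearts. Of the reads of the 3 genes, Atp5g3 took 90.7 ± 1.05% in GR-cKO and 90.5 ± 0.599% in control hearts (SD, n = 3 each), so the mix of c subunit mRNAs differed by less than its spread. The log2 fold changes were -0.02 for Atp5g3 (95% interval -0.25 to 0.20), -0.07 for Atp5g1 (-0.29 to 0.15) and 0.03 for Atp5g2 (-0.63 to 0.69). Atp5g1 was at -0.02 without control replicate 2 and at -0.03 without GR-cKO replicate 3. The membrane subunit genes Atp5j2 (f), Atp5k (e) and Atp5l (g) were at -0.10, 0.07 and 0.06 on the log2 scale.

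Atp5g2 and Atp5l, at means of 3.62 and 29.6 CPM over the 6 hearts, were far below the other ATP synthase genes, whose lowest was Atp5g1 at 538 CPM. The last 200 bases of each subunit transcript were searched in all annotated transcripts for copies of at least 95% identity over at least 100 bases. Atp5g2 and Atp5l each had 2 such copies, the best of 100% and 99.2% identity. Reads assigned to those copies were only 4.40% and 1.62% of those of the genes themselves. Reads that fit several places could not be followed in these files, so the levels of both genes are uncertain. Of the better-read genes, Atp5h had a copy, Gm10250, whose 1821 reads over the 6 libraries came to 2.49% of its own. Cox5b had Gm11273 with 0.502% and Cox7c had Gm10012 with 0.0586%, both of 100% identity. The copies of all others came to at most 0.107%. These shares do not show how many reads of the genes were lost because they fit several places. Of the genes on the opposite strand that shared exons with subunit genes, the best-read lay at Atp5f1 (Wdr77), Atp5j (Gabpa), Atp5a1 (Haus1) and Cox6c (Vps13b). Others, with at most 151 reads each over the 6 libraries, lay at genes including Uqcrc2, Uqcrb, Cox5a, Atp5d, Atp5l and Atp5o. Wdr77 had 3314 reads over the 6 libraries beside 106796 of Atp5f1, and Gabpa 2564 beside 77916 of Atp5j.

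Promoter sequence was read from RefSeq (GRCm38.p6, 250 bases before to 50 after the start) for 27 of the 34 genes, and searched on both strands for 5 letter patterns of factors known to act on respiratory chain genes or, for the last, of the glucocorticoid receptor. The ETS core CCGGAAG, bound by GABPA among others, was in 33.3% of these promoters, against 9.93% of all 27025 genes in the table. The NRF1 core, GCGCA followed at once by TGCGC, was in 11.1%, against 1.07%, the YY1 core AAGATGGCG in 7.41%, against 1.64%, and the core TCAAGGTCA of the oestrogen-related receptors in 7.41%, against 0.466%. The palindrome of the glucocorticoid receptor, AGAACA and TGTTCT with any 3 bases between them, was in 0 of the 27, against 0.0111% of all genes. That is 3 of the 27025 genes, so this pattern is too rare for the 0 to tell whether the subunit genes lack receptor sites. Matches of different patterns within 1 promoter did not overlap. Among the 6 genes of smallest p, 5 had a promoter in the table, and Atp5j held a match while Uqcrfs1, Cycs, Cox7b and Cox7c held none. The stretches below show the matches of Atp5j, the gene of lowest fold change, and of its stalk partner Atp5h. Matches of Atp5g3 and Atp5k, whose levels hardly differed between the groups, are shown as well. All matches shown lie upstream of a RefSeq start, and Atp5j had 2 promoters in RefSeq. By the GENCODE coordinates, the Atp5j stretch lies inside the gene, whose 5′ end is at 84835625. Those of Atp5h and Atp5k reach into their genes, whose 5′ ends are at 115419962 and 108434448. The stretches are written 5′ to 3′ along the minus strand of the gene, and have the matches in capitals. Atp5k also held an ETS core outside the stretch shown. Among the genes with an ETS core, Sdhd, Atp5h and Atp5j had fold changes below 0. The others, Sdhb, Uqcrh, Uqcr11, Atp5e, Atp5k and Atp5l, had fold changes above 0. A link between these patterns and the fold changes was not tested.
Atp5j (chr16:84835021-84835074, YY1 then ETS core): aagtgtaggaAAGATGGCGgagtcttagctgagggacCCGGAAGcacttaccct
Atp5h (chr11:115419931-115419977, ETS core): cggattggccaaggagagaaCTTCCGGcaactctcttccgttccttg
Atp5g3 (chr2:73911350-73911398, oestrogen-related receptor core): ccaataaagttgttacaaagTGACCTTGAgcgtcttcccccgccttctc
Atp5k (chr5:108434420-108434469, NRF1 core): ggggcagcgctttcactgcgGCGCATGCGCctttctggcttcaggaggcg

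The complexes were set side by side without a test of the difference between them. Median log2 fold changes were -0.12 for complex II (3 of 4 below 0), -0.06 for complex III (5 of 9), -0.16 for the complex IV subunits (4 of 5) and -0.04 for complex V (9 of 15). Without control replicate 2 the medians were -0.09 for complex II, 0.04 for complex III, -0.14 for complex IV and 0.01 for complex V. Without GR-cKO replicate 2 those of complexes III and V were also just above 0, at 0.01 each. The median of complex IV was the one that stayed furthest below 0 in each of these settings.

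Summed levels weight the abundant subunits. The 34 genes together were at 42150, 41997 and 46557 CPM in GR-cKO replicates 1, 2 and 3, against 43611, 47609 and 43037 CPM in control replicates 1, 2 and 3. The means were 43568 ± 2589 CPM in GR-cKO hearts and 44752 ± 2490 CPM in control hearts (SD, n = 3 each), a difference smaller than either SD. Complex V made up 54.6 ± 0.819% of the reads of the 34 genes in GR-cKO and 54.4 ± 0.295% in control hearts. Complex III made up 25.3 ± 0.519% in GR-cKO and 24.6 ± 0.414% in control hearts, and complex IV 14.9 ± 0.735% in GR-cKO and 15.6 ± 0.185% in control hearts. Complex II made up 4.90 ± 0.0834% in GR-cKO and 5.08 ± 0.0413% in control hearts. For complex II the GR-cKO shares of 4.98, 4.90 and 4.82% lay below the control shares of 5.06, 5.05 and 5.13%, while the shares of the other complexes overlapped between groups. Of the 4 genes of complex II, only Sdhc had CPM values that did not overlap between the groups. Those of Sdha, Sdhb and Sdhd overlapped, so the lower share does not describe each gene of the complex. The ratio of mean summed levels, GR-cKO over control, was 0.939 for complex II, 1.00 for complex III, 0.931 for complex IV and 0.978 for complex V.

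**Figure D3:**
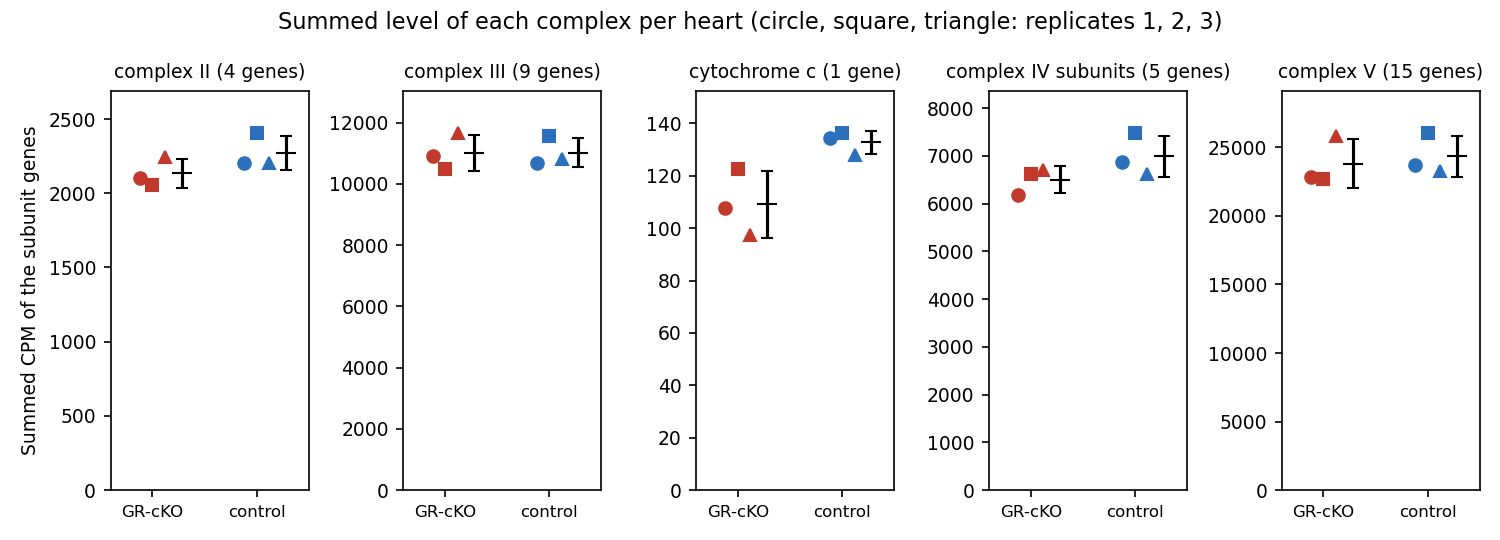
Summed CPM of the subunit genes of each complex (y axes, from 0, scaled per panel) in GR-cKO hearts (red) and control hearts (blue); circle, square and triangle are replicates 1, 2 and 3, and black marks give mean ± SD. Control replicate 2 is the highest control heart in every panel, and GR-cKO replicate 3 the highest GR-cKO heart in all but cytochrome c.

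The hearts differed in which of them was highest or lowest. Control replicate 2, the heart with the fat markers, was the highest of the 6 for 17 of the 34 genes, and GR-cKO replicate 3, the heart with the most Gm42418 reads, for 12. GR-cKO replicate 3 was also the lowest for 8 genes, so that it was high for some subunits and low for others. Relative to the mean of the 6 hearts its log2 levels ran from -0.38 (Atp5j) to 0.33 (Atp5o), with 18 genes above and 16 below. Control replicate 2 had 25 genes above its 6-heart mean and 9 below, GR-cKO replicate 1 had 11 above and 23 below, and GR-cKO replicate 2 had 8 above and 26 below. Control replicates 1 and 3 were near balance, with 15 and 16 genes above. Left out in turn, these hearts moved the count of genes below 0 to 28 without GR-cKO replicate 3 and to 18 without control replicate 2, where the median log2 fold change of the 34 was -0.10 and -0.0041. The part of the fat markers or of the Gm42418 share in these differences was not tested.

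**Figure D4:**
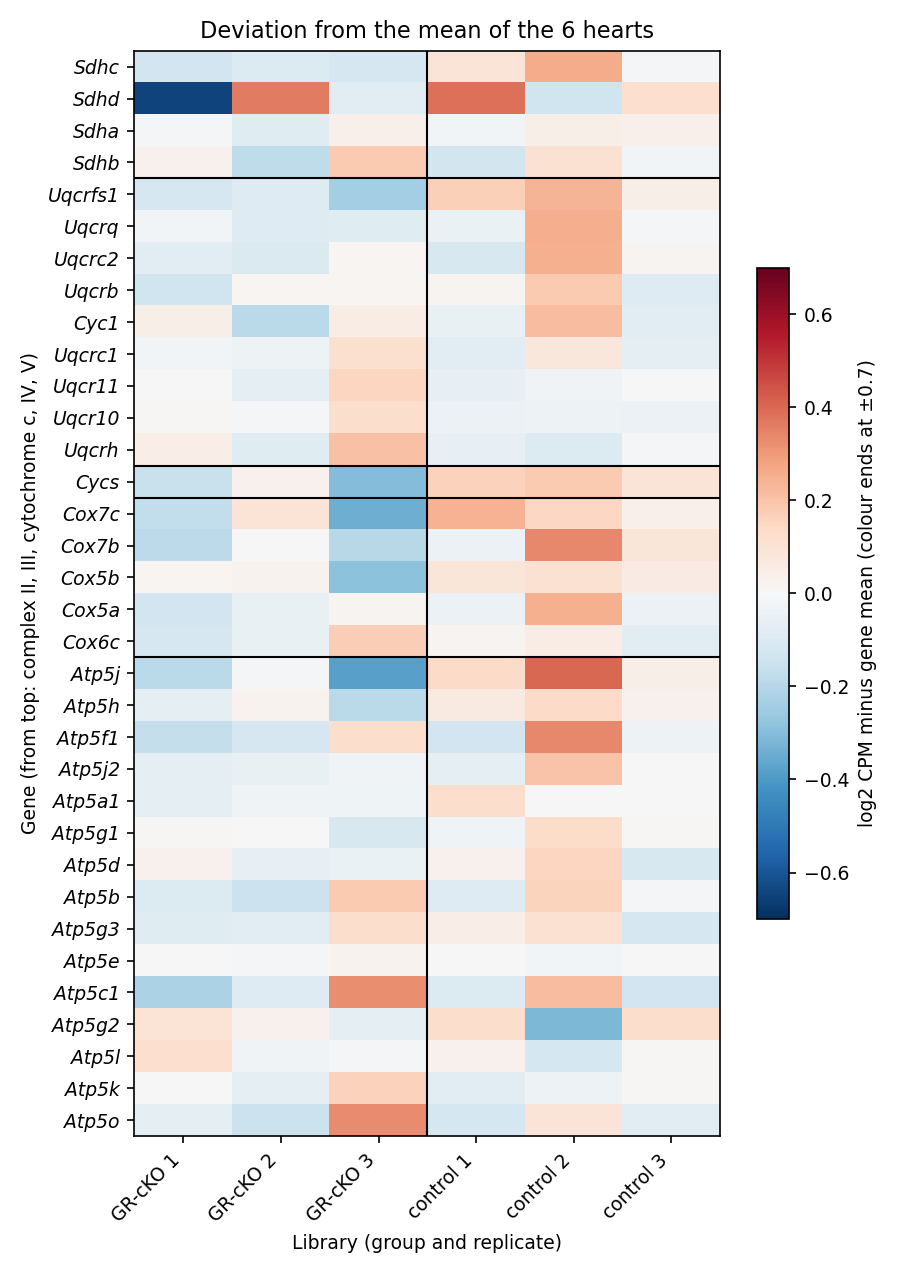
Log2 CPM of each subunit gene minus its mean over the 6 hearts (colour), by gene (rows, grouped by complex) and library (columns, GR-cKO left of control). GR-cKO replicate 3 has both the blue of Atp5j, Cox7c, Cycs and Cox5b and the red of Atp5o and Atp5c1, and control replicate 2 is red for most genes.

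Proteins that assemble or regulate these complexes were read from a list of 38 genes, of which 37 were tested and Pet117 had 0 reads. No member passed in edgeR. At an unadjusted p under 0.05, 1 was lower (2.70%, against 2.13% of all tested genes) and 0 were higher (against 2.07%). Of the 37, 22 had a fold change below 0 (59.5%, against 48.7% of all tested genes) and 15 above, with a median of -0.04. Sdhaf2, which helps attach the flavin to Sdha, had the smallest p of the list. It was at 19.7, 25.2 and 19.5 CPM in GR-cKO and 25.8, 35.8 and 22.8 CPM in control hearts, or -0.39 on the log2 scale (SE 0.179, unadjusted p = 0.0442, edgeR adjusted p = 0.998). It was -0.18 without control replicate 2, its highest heart. Usmg5, a small protein that holds ATP synthase dimers together, was at 578, 737 and 404 CPM in GR-cKO and 784, 662 and 682 CPM in control hearts. Its log2 fold change of -0.31 became -0.11 without GR-cKO replicate 3 and -0.53 without GR-cKO replicate 2.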

How the data were processed

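Each library has 1 deposited file of raw counts for Ensembl mouse genes and spike-in transcripts. Per the labels' protocols, libraries came from 100 ng of total RNA and the QuantSeq 3′ FWD kit. Per the submitters' processing notes, the tools included DESeq2 1.18.1, featureCounts 1.6.2, STAR 2.5.4a and cutadapt 1.16, and the build was GRCm38. The annotation release, strand setting and handling of reads with several matches were not stated in the labels used here. Symbols and coordinates came from GENCODE M21 on the same build. Library sizes and tests did not include the 99 spike-in rows.

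In R 4.3.3, edgeR 4.0.16 filtered genes with filterByExpr, scaled by TMM and tested genotype with the robust quasi-likelihood F test. SE is the log2 fold change over the root of F. Replicate p-values cover the spread between hearts, and no batch was named in the labels. Alternatives used DESeq2 1.42.0, limma 3.58.1, other scalings, no filter, sex or replicate terms, and each library left out. Copies were searched with blastn 2.17.0. Level differences over many genes, sums and motif shares carry no test. Named genes were all of complex II, the 3 of smallest p in complexes III, IV and V, the most abundant of each complex, Cycs, the 3 c subunit genes and the 2 assembly genes of smallest p. Others are named for completeness or after their values were seen. The members and lists were chosen with earlier results of these data known.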

Additional observations from a re-analysis of the deposited data

How the results depend on the processing

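Calls among the 34 subunit genes were 0 under all 14 alternatives, and the count of those below 0 was 22 under each, except for 28 with library totals, 19 with spike-in scaling and 18 to 28 with 1 library left out. Over all genes, 0 were called higher and 1 lower, against 4 higher and 6 lower with no low-count filter, 2 lower with library totals, 3 lower with DESeq2 and 1 to 2 lower with 1 library left out. The median log2 fold change of all genes was moved by at most 0.05, with spike-in scaling. The median of complex II was -0.15 with library totals, -0.067 with spike-in scaling and -0.13 to -0.0076 with 1 library left out. With library totals the medians were -0.10 for all 34, -0.11 for complex III, -0.19 for complex IV and -0.08 for complex V. With spike-in scaling they were -0.015 for all 34, -0.018 for complex III, -0.089 for complex IV and 0.0060 for complex V, which changed sign. That of assembly genes was 0.016 with spike-in scaling. Fold changes near 0 changed sign. With spike-in scaling Sdha was at 0.0063 and Atp5g3 at 0.018. With library totals Sdhb was at -0.015, Cox6c at -0.035 and Atp5g2 at -0.0036. With 1 library left out the ranges were -0.059 to 0.12 for Sdhb, -0.48 to 0.024 for Sdhd, -0.084 to 0.070 for Cox6c, -0.21 to 0.037 for Atp5f1, -0.097 to 0.025 for Atp5g3 and -0.10 to 0.10 for Atp5g2. The cause was not tested. With the replicate block 22 of the 34 were below 0 and 1 gene was called lower. Deviations of same-numbered libraries correlated at 0.062, 0.056 and 0.014 across genes, and those of the other pairs at -0.089 to 0.029. Not every library correlated best with its own number. Correlations this weak cannot decide whether the numbers pair the hearts. Depth limits Atp5g2, with 56 to 90 reads per library, most.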

Other observations

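The abundant and the less abundant of the 34 genes lay apart, a split made after the values were seen and given without a test. Ranked by mean CPM over the 6 hearts, the upper 17 genes (899 to 5233 CPM) had 8 fold changes below 0 and a median log2 fold change of 0.0078. The lower 17 (3.62 to 845 CPM) had 14 below 0 and a median of -0.15. In GR-cKO replicate 3 the median deviation from the 6-heart mean was 0.12 on the log2 scale for the upper and -0.11 for the lower genes, while in control replicate 2 it was 0.09 and 0.14. Without GR-cKO replicate 3 the medians were -0.08 for the upper and -0.11 for the lower genes. Genes of any kind with a mean of at least 100 CPM, 1525 in all, had 42.3% of fold changes below 0 and a median of 0.03. Their median deviation was 0.09 in GR-cKO replicate 3 and -0.03 to -0.0026 in the other hearts. The upward shift in that library was thus not particular to the abundant subunit genes. The lower 17 subunit genes lay the other way there, although all but Atp5g2 and Atp5l had means above 100 CPM.

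Neighbouring genes of the chain are set beside these as values only. The 37 genes with Nduf subunit symbols, most of which encode complex I subunits, had a median log2 fold change of -0.05 with 23 below 0. The 11 oxidase genes with tissue or paired isoforms had a median of -0.09 with 8 below 0. Of 6 mitochondrially encoded partners, mt-Cytb and mt-Co1 had reads enough for the test, with log2 fold changes of -0.19 and -0.13, and neither was called. The others had at most 7 reads in a library, and mt-Atp8 had 0. Reads that fit several places could not be followed here either, so the levels of these genes are uncertain.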
